A study of Schizosaccharomyces pombe with 4 samples.

Results

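The mating-type locus of fission yeast (Schizosaccharomyces pombe) and the chromosome around it were followed in 4 tiling arrays of newly made DNA. The probes were chosen by their names, with no measured value used: all 110 probes of a separate contig of the array design called mat, and the 498 probes of chromosome 2 from position 2050001 to 2200000, together 608 of the 41551 probes of the array. The chromosome 2 stretch was divided into a middle of 30 kb (2110001 to 2140000, 100 probes), a left flank of 60 kb (2050001 to 2110000, 200 probes) and a right flank of 60 kb (2140001 to 2200000, 198 probes). Positions follow the names of the probes, with 1 as the first base; the genome build behind them is not given in the sources used here and differs from the reference at hand, ASM294v3, so no gene was placed on the array. Probes are 60 bases long and most start 300 bp apart.

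In fission yeast the mating type is set by the genes at mat1, the expressed cassette, while mat2 and mat3 are silent donor cassettes kept in heterochromatin. The segment between the silent cassettes, the K region, holds sequence similar to centromeric repeats and nucleates that heterochromatin. Switching starts from an imprint at mat1 that depends on the direction in which a replication fork passes, so barriers to forks and the time of replication matter at this locus, and the silent region is known to replicate early in S phase. Fft3 is a chromatin remodeler of the Fun30 family, related to human SMARCAD1, with a known part in keeping heterochromatin through replication. The reference annotation lists mat1-Mi, mat1-Mc, mat3-Mi and mat3-Mc on chromosome 2, the M genes of mat1 and mat3.

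All 4 samples carried cdc25-22, which encodes a heat-labile form of the Cdc25 phosphatase needed to enter mitosis, with Pnmt1-TK and Padh1-hENT, which supply a thymidine kinase and a human nucleoside transporter so that the cells can use 5-bromo-2′-deoxyuridine (BrdU). The compared genotypes were cdc25-22 alone, titled wild type (2 arrays), and cdc25-22 fft3Δ (2 arrays), each with an array of series 1 and one of series 2. Cells grown at 26°C were held at 37°C at the G2/M boundary and released at 26°C into 10 mM hydroxyurea, which depletes nucleotides and stalls forks, and 200 µM BrdU, and were sampled at 120 min. Precipitated BrdU DNA was labelled with Cy5 and whole-cell DNA, the input, with Cy3. The log2 ratio of Cy5 to Cy3, centred on each array's median, is therefore higher where more DNA had been made, relative to the rest of that array.

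The arrays of a series were read on the same scanner, different from that of the other series, and nothing says that the 2 arrays of a genotype came from separate cultures; p-values measure only the spread between these arrays. The median Cy3 signal of the probes was 17.3 to 217 times the background. Wild-type array 2 stood apart: its log2 Cy3 values had an SD of 0.565 across probes against 1.01 to 1.09 on the others, and 617 of its spots were flagged as non-uniform against 4 to 7. The input did not bear out the label fft3Δ. Runs of 12 neighbouring probes span the 3611 bp of the gene. Over 41218 such runs the lowest input change shared by both series was -0.28 on the log2 scale. A deletion should lower such a run, and 0 runs fell to -1 or lower in both. The gene was not placed on the array, so whether the probes cover it was not checked, and the cause was not tested. The arrays are therefore called labelled fft3Δ throughout.

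The landscape of the chromosome 2 stretch was the same in outline on all 4 arrays: a valley in the last part of the left flank, a steep rise, a sharp peak, and a level raised for about the rest of the middle. In the 10 kb from 2100001 to 2110000 the mean log2 ratio was -1.28 and -1.12 on wild-type arrays 1 and 2 and -1.11 and -1.17 on labelled fft3Δ arrays 1 and 2. In the 10 kb from 2120001 to 2130000 it was 0.48 and 0.30 in wild type and 0.43 and 0.34 in labelled fft3Δ. The groups overlapped in both of these 10 kb parts. In the 10 kb between them, 2110001 to 2120000, which holds the rise, the groups did not overlap. The ratio there was -0.42 and -0.44 in wild type and -0.19 and -0.24 in labelled fft3Δ. The difference was 0.22 in series 1 and 0.20 in series 2 and was not tested. Cy3 in this part went opposite ways, with -0.16 for series 1 against 0.40 for series 2. No other 10 kb part of the stretch had both labelled arrays above both wild-type arrays. Both were below in the parts that start at 2090001, 2160001, 2180001 and 2190001. The steepest rise, found as the largest difference between the 5 kb after and the 5 kb before a position in the mean of the arrays, lay at 2115701. There the ratio climbed by 1.93 and 1.36 on the wild-type arrays and by 2.08 and 1.62 on the labelled fft3Δ arrays. The steepest fall, at 2105501, was -0.70 and -0.78 in wild type and -0.53 and -0.69 in labelled fft3Δ, so the valley was entered by smaller steps than it was left. Rise and fall were picked by their size and are descriptions.

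**Figure D1:**
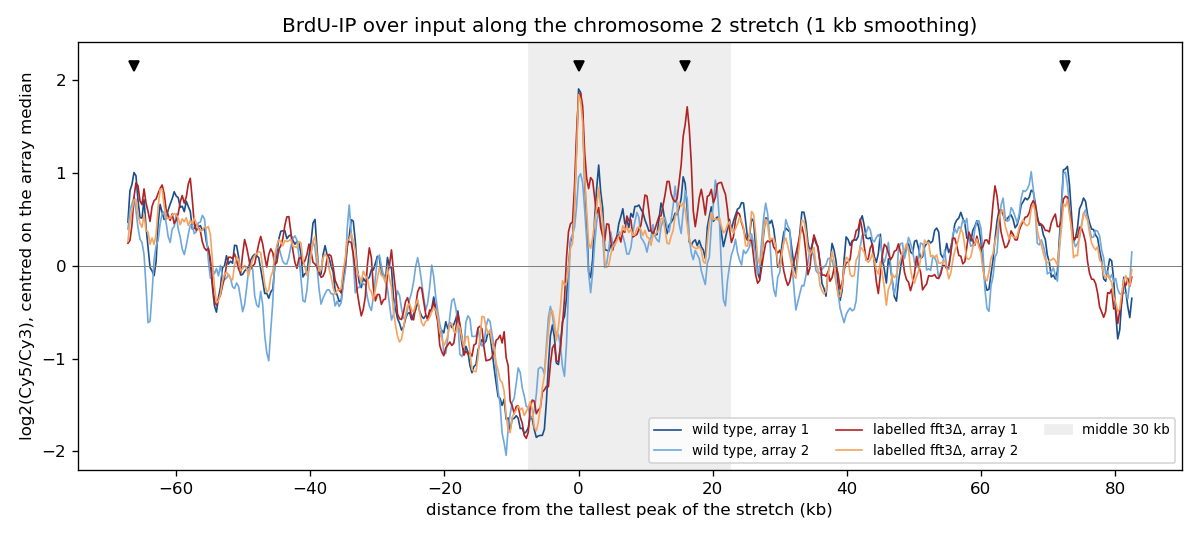
Log2 ratio of BrdU-precipitated to input DNA, centred on each array's median and averaged over probes within 500 bp (y axis), against the distance in kb from the tallest peak of the chromosome 2 stretch (x axis), 1 line per array; the grey band is the middle 30 kb and triangles mark the 4 peaks. All 4 lines drop into the valley left of the tallest peak, and labelled fft3Δ array 1 alone is high at the peak 15.9 kb to its right.

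Averaged over the whole middle, valley and plateau partly cancelled. The middle had a mean log2 ratio of 0.17 and 0.055 in wild type (0.11 ± 0.082, SD, n = 2) and 0.36 and 0.17 in labelled fft3Δ (0.26 ± 0.14, SD, n = 2). Among 416 tiles of 30 kb over the chromosomes it was an ordinary one, with 83 to 203 tiles higher depending on the array. The left flank was the lowest of the regions at -0.20 and -0.28 in wild type and -0.16 and -0.21 in labelled fft3Δ. The right flank had 0.24 and 0.16 in wild type and 0.13 on both labelled fft3Δ arrays. The right flank exceeded the left on each array, by 0.38 ± 0.070 (SD, n = 4), with an exact sign-flip permutation p of 0.125, two-sided, the smallest that 4 arrays can give.

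Within arrays, the middle exceeded the mean of the flanks by 0.15 and 0.12 in wild type and by 0.38 and 0.20 in labelled fft3Δ. It was higher in 4 of 4 arrays, by 0.21 ± 0.12 (SD, n = 4; exact sign-flip permutation p of 0.125, two-sided). This order was not kept under a within-array loess normalization, which removes any trend of ratio with brightness and brought the mean excess to -0.011. The middle was also bright in the input alone, at 0.50 and 0.25 in wild type and 0.37 and 0.44 in labelled fft3Δ on the log2 scale, while the flanks were at -0.18 to -0.063; the part of that brightness in the excess was not tested. Against the right flank alone the middle had no consistent order: it was lower on both wild-type arrays (-0.070 and -0.10) and higher on both labelled fft3Δ arrays (0.23 and 0.034).

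The mat contig was higher than the flanks on each array. Over the 83 probes with Cy3 well above background on all 4 arrays, the mean log2 ratio was 0.41 and 0.26 in wild type (0.33 ± 0.11, SD, n = 2) and 0.52 and 0.40 in labelled fft3Δ (0.46 ± 0.080, SD, n = 2). Its excess over the flanks was 0.39 and 0.32 in wild type and 0.53 and 0.44 in labelled fft3Δ, or 0.42 ± 0.089 over the arrays (SD, n = 4; exact sign-flip permutation p of 0.125, two-sided). Under the loess normalization the excess was 0.11, in the same direction, and with Cy5 alone it was 1.14. The contig too was bright in the input, at 0.76 and 0.28 in wild type and 0.66 and 0.70 in labelled fft3Δ.

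**Figure D2:**
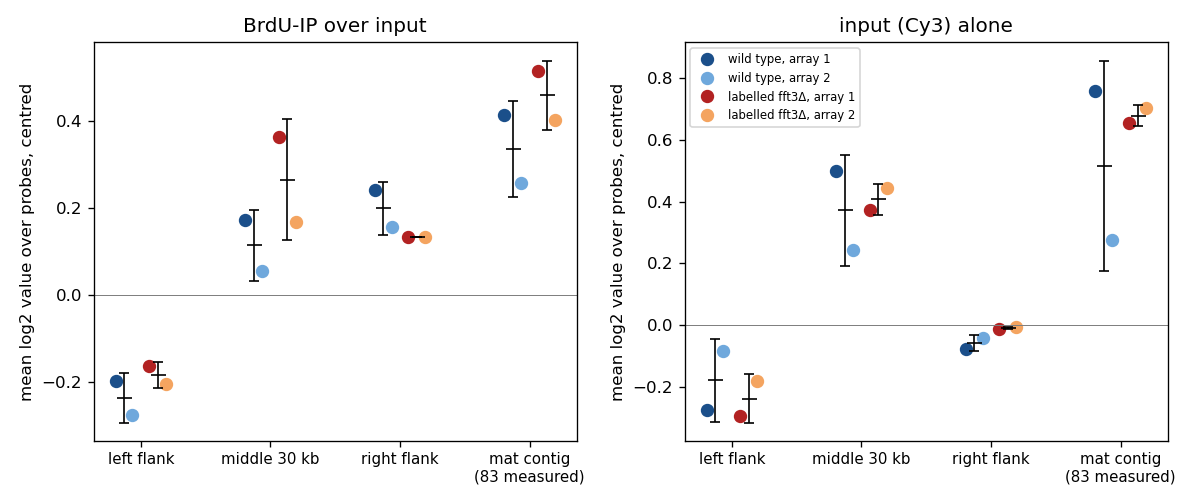
Mean over probes of the log2 ratio (left panel) and of the log2 input signal (right panel), both centred on the array median (y axes), for the left flank, the middle 30 kb, the right flank and the 83 measured probes of the mat contig; points are the 4 arrays, and bars show the mean and SD of each genotype (n = 2). The middle and the contig lie above the left flank in both panels, and the genotypes overlap in the ratio except in the right flank.

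The contig fell into 4 blocks, set off by a letter f in the probe names, whose meaning is not given in the sources used here. The first block (1 to 3960, 12 probes without the letter) was low, at -1.08 and -0.88 in wild type and -1.05 and -0.78 in labelled fft3Δ. The second (4201 to 22560, 47 probes with it) was high, at 0.62 and 0.40 in wild type and 0.74 and 0.52 in labelled fft3Δ. The fourth (35101 to 41160, 13 probes with it) had 0.39 and 0.13 in wild type and 0.56 and 0.37 in labelled fft3Δ. The genotypes overlapped in these 3 blocks.

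The third block, 22801 to 34860, was unlike the other blocks and the chromosomes. Of its 38 probes, 27 were not well above background in Cy3 on at least 1 array, 16 of them on none of the arrays and 11 on some. Of the 41251 probes of the chromosomes, 0 were in that state. The array's remaining probes were not counted. These dim probes had a median processed Cy3 intensity of 4.15 and 2.35 in wild type and 6.34 and 2.70 in labelled fft3Δ, against medians of 3.85, 1.88, 2.55 and 1.83 for the negative control spots and of 1380 to 1655 for the measured probes of the contig. The brightest dim probe reached 18.8 to 54.0 by array, against 13.1 to 38.8 for the brightest negative control. The median dim signal lay below the brightest negative control on all 4 arrays, whatever the genotype label, but the arrays were not alike. Of the 27 dim probes, 0 and 4 were well above background in wild type and 6 and 3 in labelled fft3Δ. Those from 22801 to 23701 had a median intensity of 18.6 on labelled fft3Δ array 1, against 1.81 to 3.63 on the others. The dim probes lay in 4 runs: 22801 to 23701 (4 probes), 24301 to 28501 (15 probes), a single probe at 31201, and 33001 to 34801 (7 probes). Their ratios spread from -3.24 to 1.04 on wild-type array 1 and from -1.28 to 2.16 on labelled fft3Δ array 2, and are given only as values of spots with little or no input signal.

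Between the dim runs stood 10 measured probes, from 28801 to 32701, that were bright in the median. The last of them, at 32701, had log2 Cy3 values of only 8.39 to 10.2, below the contig's measured median on each array. Their median processed Cy3 intensity was 6515 and 1790 in wild type and 6647 and 5146 in labelled fft3Δ. On wild-type array 1 and both labelled fft3Δ arrays, 0.841% to 1.03% of the chromosomes' probes were as bright; on wild-type array 2, whose input range was narrow, 11.1% were. Their mean ratio was 1.14 and 1.39 in wild type (1.26 ± 0.18, SD, n = 2) and 1.16 and 1.22 in labelled fft3Δ (1.19 ± 0.045, SD, n = 2). The groups overlapped, and the difference had opposite signs in the series, 0.021 in series 1 and -0.17 in series 2. A ratio over 1 was held by 2.30% to 3.80% of the chromosomes' probes. The run was delimited after its values were seen and was not tested. A lone measured probe at 24001, between 2 dim runs, had Cy3 intensities of only 37.1 to 273 and ratios of 1.80 and 0.76 in wild type and 1.83 and 1.54 in labelled fft3Δ.

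**Figure D3:**
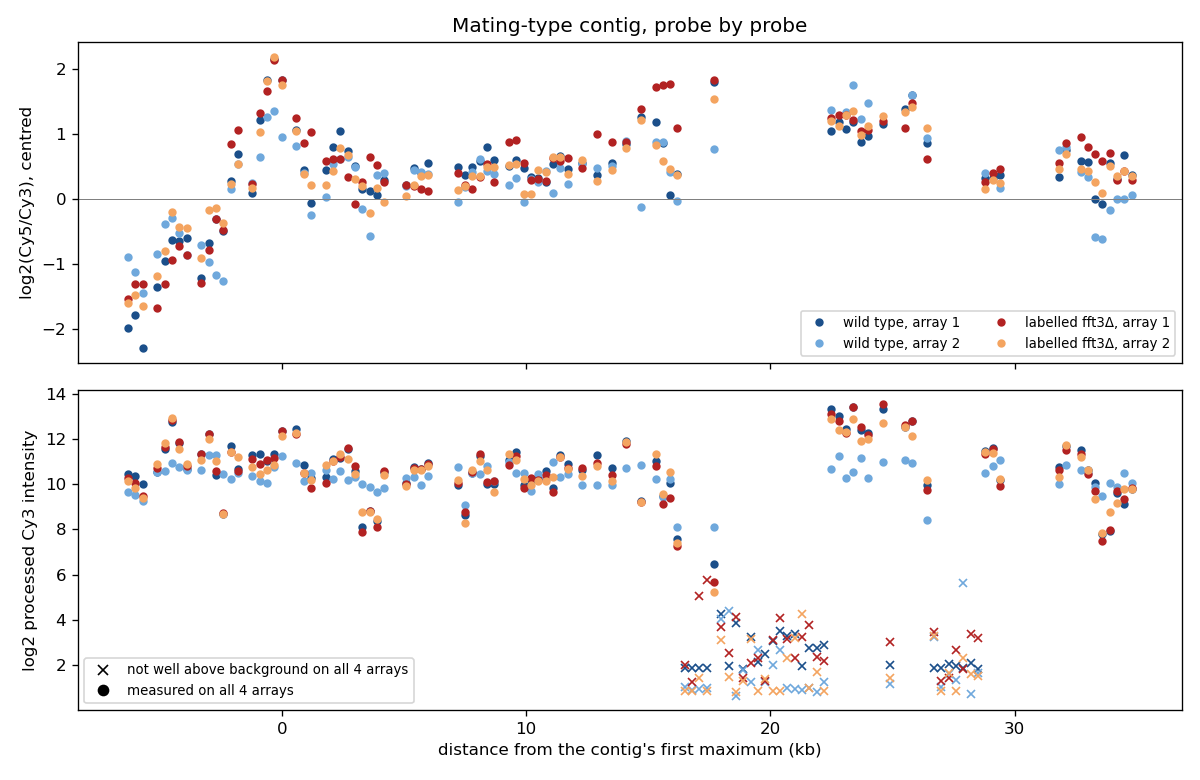
Probes of the mat contig by distance in kb from the contig's first maximum (x axis): the upper panel shows the centred log2 ratio of the 83 measured probes and the lower panel the log2 processed Cy3 intensity of all 110, 1 colour per array, with crosses for the 27 probes not well above background on all arrays. The crosses lie low, with their median below the brightest negative control on every array, beside a run of 10 measured probes, most of them bright, whose ratio is over 1 on average.

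The contig and chromosome 2 repeated each other's profile. When the contig's first block was slid along chromosome 2 from offset 2089800 to 2139900 in steps of 300 bp, the correlation of its ratios with those of the chromosome's probes, averaged over the arrays, was highest at offset 2111400 (Pearson's r of 0.948 over 12 probes). Its input profile correlated at 0.723 there and best, at 0.753, at offset 2102400, where the ratios correlated at -0.095, so ratio and input place this block differently. The second block had its best place at offset 2111700, where r was 0.862 over 47 probes and 0.836 or more on each array. Among the offsets further away, with those nearest to the best place left out, the highest r was 0.403. At 2111700 the input profiles also correlated best (0.524). The mean absolute difference in ratio there was 0.17. The fourth block had its best place at 2099400 (r of 0.828 over 13 probes), for the ratio and for the input alike. The offset of the second block exceeded that of the fourth by 12.3 kb, while the probes of the third block spanned 12 kb. For the 11 measured probes of that block no offset gave an r of the ratios above 0.504, and the best r of the inputs was 0.710 at offset 2097300, where the ratios correlated at -0.38. These correlations are across probes of the same arrays, which share labelling and sequence composition, and carry no test. The match of the 72 measured probes outside the third block is by the ratio's profile and not by sequence. Values of the contig and of chromosome 2 are therefore not treated as independent of each other.

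**Figure D4:**
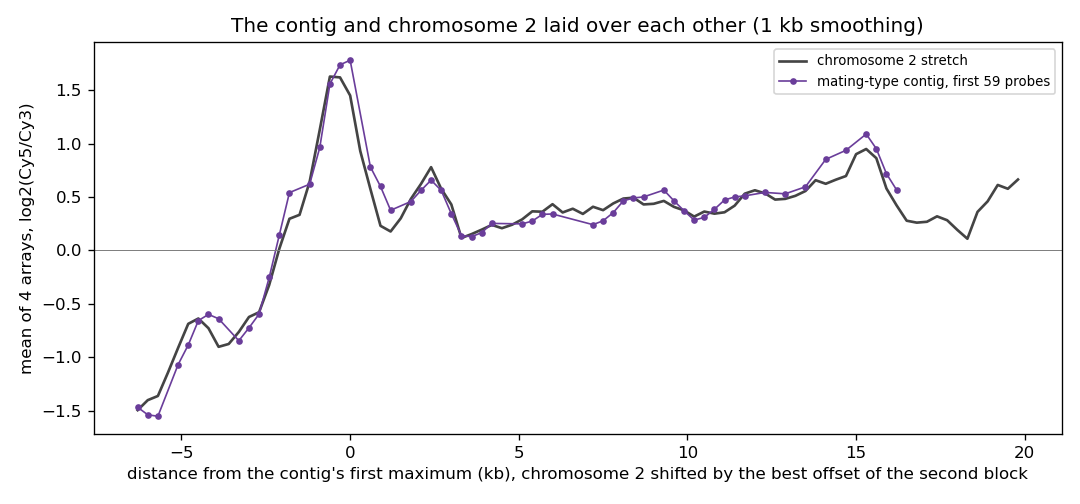
Mean of the 4 arrays of the centred log2 ratio, averaged over probes within 500 bp (y axis), for the first 59 probes of the mat contig and for chromosome 2 shifted by the best offset of the contig's second block, against the distance in kb from the contig's first maximum (x axis). The lines share the low start, a tall first maximum and a lower second maximum, which lies 15.3 kb from the first on the contig and 15.9 kb from it on chromosome 2.

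The tallest peak of the stretch stood at 2117401, just right of the steepest rise, and had rank 3 in height among 303 peaks of the array. A peak is here a local maximum of the 4-array mean, with probes within 500 bp averaged, more than 1 background SD above the median; its value is the mean of probes within 1 kb. The value was 1.28 and 0.72 in wild type and 1.38 and 1.21 in labelled fft3Δ. Wild-type array 2 was low, and the other wild-type array lay between the labelled fft3Δ arrays. The difference, labelled fft3Δ minus wild type throughout, was 0.29 ± 0.16 (SE; limma, adjusted p of 0.57 over 303 peaks). Without wild-type array 2 it was 0.012. On the contig the first maximum, at 6301, had smoothed ratios of 2.0 and 1.16 in wild type and 1.99 and 1.98 in labelled fft3Δ, with the same array low. At the second block's best offset, 2111700, this maximum lay near the tallest peak but not at the same position. The apex of the tallest peak moved by no more than 300 bp between arrays.

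The second peak of the middle, at 2133301, lay 15.9 kb to the right and was of ordinary height (rank 151). Its value was 0.58 and 0.42 in wild type and 1.33 and 0.48 in labelled fft3Δ. Only labelled fft3Δ array 1 was high, and labelled fft3Δ array 2 lay between the wild-type arrays. The difference was 0.41 ± 0.18 (SE; limma, adjusted p of 0.47), made up of 0.75 in series 1 and 0.068 in series 2. Without labelled fft3Δ array 1 it was -0.014, and without labelled fft3Δ array 2 it was 0.84 with a limma adjusted p of 0.030, where the lone array is assumed to vary like the wild type. On the contig the matching maximum at 21601 showed the same array alone: 1.03 and 0.88 in wild type, 1.75 and 0.71 in labelled fft3Δ. Both readings come from the same array, so this is no second sample.

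Single probes located the excess of labelled fft3Δ array 1. The probe at 2133901 had ratios of 0.15 and 0.36 in wild type and 1.86 and 0.19 in labelled fft3Δ. Its input signal was 1.53 and 0.11 in wild type and 0.76 and 1.20 in labelled fft3Δ, so that within series 1 the ratio was higher where the input was lower. The contig's probe at 22201 had 0.062 and 0.42 in wild type and 1.78 and 0.46 in labelled fft3Δ. At 2119201, just right of the tallest peak, the ratios were -0.30 and -0.26 in wild type and 1.20 and 0.24 in labelled fft3Δ. Labelled fft3Δ array 1 exceeded all 3 other arrays by over 0.5 at 15 of 100 probes of the middle and 8 of 83 of the contig, against 6 of 200 in the left flank, 7 of 198 in the right flank and 2.94% of all measured probes. The limit of 0.5 was chosen after the data were seen, and these counts describe 1 array.

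The other peaks lay at the ends of the stretch. At 2190001 in the right flank the value was 0.81 and 0.68 in wild type and 0.59 and 0.51 in labelled fft3Δ, lower on both labelled arrays, by -0.19 ± 0.14 (SE; limma, adjusted p of 0.67). At 2051101 in the left flank it was 0.79 and 0.54 in wild type and 0.57 and 0.54 in labelled fft3Δ, with a difference of -0.11 ± 0.14 (SE; limma, adjusted p of 0.78). Neither passed the test, and 1 of the 4 peaks had both labelled arrays below both wild-type arrays, against 30.4% of all peaks; none had both above, against 11.2%. By limma 0 of 303 peaks passed an adjusted p of 0.05, while 31 (10.2%) had an unadjusted p under 0.05, the peak at 2133301 among them.

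Whether loss of fft3 changes DNA synthesis at the locus is the question the genotypes pose, and the genotypes overlapped in the contig, the middle and the left flank and not in the right flank. The mat contig was higher in labelled fft3Δ by 0.12 (0.10 in series 1, 0.15 in series 2; exact permutation p of 0.67, two-sided). The middle was higher by 0.15 (0.19 and 0.11; p of 0.67 by the same exact test). The left flank was higher by 0.052 (exact permutation p of 0.67), and the right flank was lower by -0.066 (-0.11 and -0.023; exact permutation p of 0.33, the smallest that 2 arrays against 2 can give). Single arrays decided these sizes. Without wild-type array 1 the difference was 0.20 for the contig, 0.21 for the middle, 0.092 for the left flank and -0.022 for the right flank. Without wild-type array 2 it was 0.046, 0.093, 0.012 and -0.11 in the same order. Without labelled fft3Δ array 1 it was 0.067 for the contig, 0.053 for the middle and 0.031 for the left flank, and without labelled fft3Δ array 2 it was 0.18, 0.25 and 0.074; the right flank stayed at -0.066 and -0.065. After loess normalization the right flank's groups overlapped as well, with a difference of -0.052. The contig's difference was -0.011 after normexp background correction.

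Relative to the mean of both flanks of the same array, the genotypes did not overlap in the ratio as processed here. The excess of the contig over the flanks was greater in labelled fft3Δ by 0.13 (0.14 in series 1, 0.12 in series 2), and that of the middle by 0.16 (0.23 and 0.085), each with an exact permutation p of 0.33, two-sided. The right flank's excess over the left was smaller in labelled fft3Δ by -0.12 (-0.14 and -0.094; exact permutation p of 0.33). For the contig the groups overlapped, and the size moved, after normexp correction (0.035), with the median of probes (0.056) and with Cy5 alone (0.30). They also overlapped with its probes with the letter f alone (0.14). For the middle they overlapped with Cy5 alone (0.20). Against the left flank alone the contig's groups overlapped, at 0.610 and 0.534 in wild type and 0.679 and 0.608 in labelled fft3Δ. Against the right flank alone they did not, at 0.171 and 0.101 in wild type and 0.382 and 0.269 in labelled fft3Δ. Against both flanks, without labelled fft3Δ array 1, the contig's value was 0.084 and the middle's 0.069. Without labelled fft3Δ array 2 the middle's was 0.24. The input signal differed by 0.16 on the contig, -0.10 in series 1 and 0.43 in series 2, and by 0.036 in the middle, -0.13 and 0.20. Both signs were present, and the series 2 differences of the input were larger than those of the ratio; their part in the ratio was not tested.

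In windows of 2 kb, limma called 0 of 6266 windows of the array at an adjusted p of 0.05, none of the 75 of the chromosome 2 stretch or the 20 of the contig among them; at an unadjusted p under 0.05 it found 261 windows (4.17%), 206 of them higher in labelled fft3Δ (3.29% of all windows) and 55 lower (0.878%). Of the stretch's windows 3 were among the higher and 0 among the lower, and of the contig's 1 was among the higher, that from 22001 to 24000, in which 4 of 6 probes were dim. With the series as a block 40 windows were called, 0 of them on the chromosome 2 stretch and 2 on the contig. Those 2, from 22001 to 24000 and from 26001 to 28000, held 4 of 6 and 7 of 7 dim probes and rest on spots with little or no input signal.

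The right flank leaned one way. Both labelled fft3Δ arrays lay below both wild-type arrays in 15 of its 30 windows, against 19.4% of all windows, and above them in 2, against 15.0%. The median difference of its windows was -0.13, and -0.019 over all windows. The largest fall of the stretch by moderated t, 2194001 to 2196000, had 0.19 and 0.27 in wild type and -0.35 and 0.099 in labelled fft3Δ. Both labelled arrays were lower there, by -0.35 (95% interval -0.75 to 0.039; limma, adjusted p of 0.89). The next were 2166001 to 2168000, with 0.21 and 0.13 in wild type and -0.14 and 0.0071 in labelled fft3Δ, and 2182001 to 2184000, with 0.53 and 0.63 in wild type and 0.35 and 0.38 in labelled fft3Δ. The lower windows were spread from 2148001 to 2198000 rather than gathered at a peak. With Cy5 alone the right flank as a whole was higher in labelled fft3Δ by 0.017, with opposite signs by series (-0.036 in series 1 and 0.070 in series 2). Its input was higher by 0.048 (0.063 and 0.034 by series). The lower ratio thus went with a higher Cy3 signal in both series, and in series 1 also with a lower Cy5 signal.

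In the middle and the left flank a smaller share of windows had groups that did not overlap. Both labelled arrays were above both wild-type arrays in 3 of 15 windows of the middle and 6 of 30 of the left flank, against 15.0% of all windows, and below in 1 and 3, against 19.4%. The window with the largest rise by moderated t, 2070001 to 2072000 in the left flank, had -0.24 and -0.64 in wild type and 0.17 and -0.12 in labelled fft3Δ, a difference of 0.47 (95% interval 0.057 to 0.88; limma, adjusted p of 0.89). The second, 2118001 to 2120000, is the right shoulder of the tallest peak. It had 0.42 and 0.19 in wild type and 1.01 and 0.55 in labelled fft3Δ, both labelled arrays above, a difference of 0.48 (95% interval 0.057 to 0.89; limma, adjusted p of 0.89). The third, 2114001 to 2116000, is its left shoulder, with -0.65 and -0.82 in wild type and -0.48 and -0.36 in labelled fft3Δ. The peak window between them, 2116001 to 2118000, was the highest of the stretch at 1.1 and 0.64 in wild type and 1.15 and 1.04 in labelled fft3Δ, and there the groups overlapped.

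The windows next in height were 2132001 to 2134000, with 0.67 and 0.59 in wild type and 1.30 and 0.57 in labelled fft3Δ, and 2050001 to 2052000, with 0.88 and 0.59 in wild type and 0.58 and 0.59 in labelled fft3Δ. The lowest were the neighbours 2106001 to 2108000, 2108001 to 2110000 and 2110001 to 2112000, the floor of the valley. The floor window 2108001 to 2110000 had -1.73 and -1.32 in wild type and -1.70 and -1.55 in labelled fft3Δ, and the groups overlapped. They overlapped in 2110001 to 2112000 as well. In 2106001 to 2108000 both labelled arrays were above, with -1.60 and -1.71 in wild type and -1.16 and -1.57 in labelled fft3Δ. From 2120001 to 2130000 the windows of the plateau differed by -0.066 to 0.048 between genotypes. The windows from 2130001 to 2140000 differed by 0.049 to 0.37. That 10 kb had 0.44 and 0.31 in wild type and 0.84 and 0.39 in labelled fft3Δ, and the groups overlapped. Its difference was 0.40 in series 1 and 0.080 in series 2. In its last window, 2138001 to 2140000, both labelled arrays were above, with 0.39 and 0.054 in wild type and 0.75 and 0.44 in labelled fft3Δ.

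**Figure D5:**
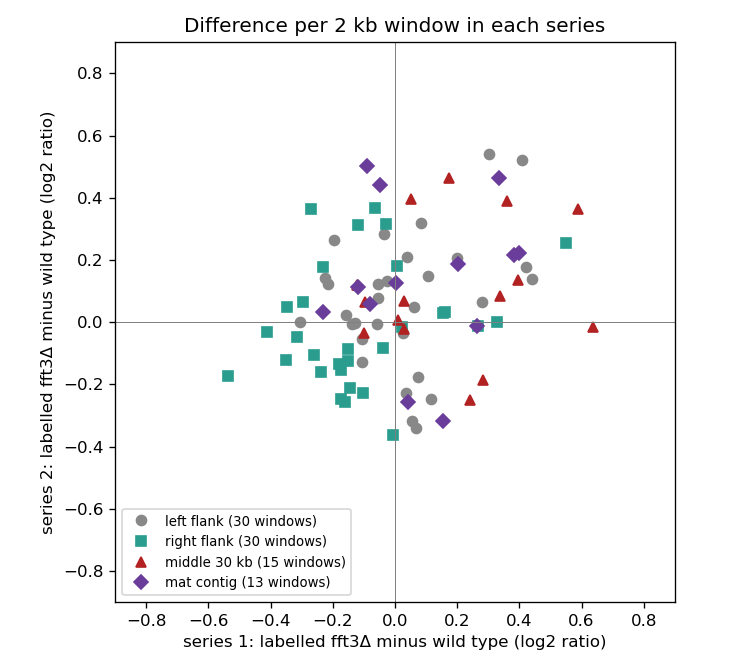
Difference in log2 ratio between labelled fft3Δ and wild type for each 2 kb window without dim probes, in series 1 (x axis) and in series 2 (y axis), for the left flank (30 windows), the middle 30 kb (15), the right flank (30) and the mat contig (13). Of the right flank's windows 16 are negative in both series, and of the middle's 8 are positive in both.

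By sign, 16 of 30 windows of the right flank were lower in both series and 5 higher in both, against 31.6% and 26.6% of all windows. In the middle 8 of 15 were higher in both and 1 lower in both. On the contig 14 windows of 2 kb had at least 3 measured probes. From 1 to 8000 their means over the arrays climbed from -1.21 (1 to 2000) and -0.68 (2001 to 4000) to 0.79 (4001 to 6000) and 1.07 (6001 to 8000). With Cy5 alone these were -0.41, 0.31, 1.76 and 2.33, with the sign of the second turned, and after loess -1.21, -0.91, 0.31 and 0.51; the climb was present in both. In the window 6001 to 8000 the ratio was 1.09 and 0.66 in wild type and 1.42 and 1.12 in labelled fft3Δ, both labelled arrays above, and the difference was 0.40. From 8001 to 20000 the means stayed between 0.25 and 0.52 and the differences between -0.11 and 0.13. The windows 20001 to 22000, 28001 to 30000, 38001 to 40000 and 40001 to 42000 had means of 0.99, 1.28, 0.42 and 0.32. Under the other settings the mean of 40001 to 42000 ran from -0.10 to 0.47, so its sign was not kept in all of them. In 38001 to 40000 the ratio was 0.36 and 0.19 in wild type and 0.74 and 0.40 in labelled fft3Δ, the other window where the groups did not overlap. Both labelled arrays were thus above both wild-type arrays in 2 of the 14 windows, against 15.0% of all windows of the array. They were below in 0, against 19.4%. Of the 14 windows 5 were higher in both series and 0 lower in both.

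Probe by probe, likeness between arrays did not follow genotype. Over the 498 probes of the stretch the ratios of wild-type array 1 correlated most closely with labelled fft3Δ array 2 (Pearson's r of 0.952), then with labelled fft3Δ array 1 (0.848) and wild-type array 2 (0.844). The labelled fft3Δ arrays correlated at 0.865, and wild-type array 2 with labelled fft3Δ array 1 at 0.698, the lowest pair. On the 83 measured probes of the contig the closest pair was the same one, at 0.967. The genotype difference of the 2 series correlated at 0.17 over the stretch and at 0.038 over the contig. Within a series the ratio difference ran against the input difference, at an r over the stretch of -0.84 for series 1 and -0.53 for series 2. The ratio contains the input with a minus sign, which by itself gives a negative value. In the input over the stretch, wild-type array 2 correlated at 0.62 to 0.72 with the other arrays, which correlated at 0.93 to 0.99 among themselves. The part of this in the likeness of the ratios was not tested.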

How the data were processed

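The deposited scanner files hold, per the file headers, processed Cy5 and Cy3 intensity values that Agilent Feature Extraction (version 12.0, and 11.5 for wild-type array 2) had background-subtracted and dye-normalized. A linear ratio per spot stands in the deposited series matrix and was found to equal processed Cy5 over Cy3, not centred. The log10 ratio column of the deposited files, Cy5 over Cy3 per the file headers, served only to check the direction. The deposited flag columns, of unit other, mark non-uniform and well-above-background spots. The genome build is not given in the sources used here. All arrays had Cy5 on the precipitated DNA, so dye bias does not cancel.

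From these values the log2 ratio of the deposited intensities was taken and centred on each array's median, without loess, since most probes carry signal. Control and non-uniform spots were left out (10 member spots on wild-type array 2). Means over probes were compared between genotypes with the exact permutation test. Peaks and 2 kb windows holding 3 probes or more were tested across the whole array with limma 3.58.1 in R 4.3.3 (Benjamini-Hochberg, threshold 0.05), checked on simulated data; intervals are limma's. Peaks lay at least 5 kb apart and over a background SD of 0.73 above the median; their threshold had been lowered in earlier work after counts were seen. Files were read with the data.table package (1.17.8) and drawn with matplotlib 3.10.9.

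Named by rule were the peaks of the stretch, the contig's windows in order, and on chromosome 2 the 3 highest, 3 lowest, 3 most risen and 3 most fallen windows by moderated t. The other probes, windows and runs named were chosen after their values were seen. Members, regions and tests were chosen with earlier results of these data known. Precision is limited by the number of arrays. No gene was placed on the array and no sequence is shown, since none was used here.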

Additional observations from a re-analysis of the deposited data

How the results depend on the processing

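Each difference between genotypes and each within-array excess was recomputed under up to 14 other settings. The genotype difference of the middle kept its sign in 12 of 12 settings, and the genotype differences of the contig's and the middle's excess over the flanks in 13 of 13 and 12 of 12, though the contig's ran from 0.035 to 0.30 and the middle's from 0.069 to 0.24; none of these passed a test in any setting, which 2 arrays against 2 cannot do. Signs turned as follows, and the cause was not tested. After normexp correction the ratio difference of the contig was -0.011 and the input difference of the middle -0.050. Centred on the mode, the left flank's ratio difference was -0.034. With Cy5 alone the right flank's difference was 0.017, the window 2182001 to 2184000 had 0.081, the peak at 2190001 had 0.087 and the peak at 2051101 had 0.033. After loess the middle's excess over the flanks was -0.011. With the median of probes the left flank's input difference was 0.038. The contig's probes with the letter f alone, chosen after seeing the data, gave a difference of 0.14, and all its probes, dim ones included, 0.25.

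Leaving out each array in turn, the input difference ran from -0.078 to 0.40 on the contig, from -0.091 to 0.16 in the middle and from -0.15 to 0.036 in the left flank, with the sign turned where wild-type array 2 was left out. Over the same 4 fits the peak at 2133301 ran from -0.014 to 0.84 and the peak at 2051101 from -0.24 to 0.014. The number of windows called on the whole array was 0 to 60, with all 60 where wild-type array 1 was left out and none of them members, and the number of peaks called was 0 to 4, the peak at 2133301 among the 4 called without labelled fft3Δ array 2. Loess gave 2 called peaks, none a member. With the replicate number (the series) as a block, 40 windows and 5 peaks were called; deviations of same-numbered arrays from their group means correlated at 0.34 over 6266 windows, and the labels do not say what a series shares. Windows of 5 kb and non-uniform spots kept gave 0 calls, as did peaks at 2 background SDs (13 peaks). With 2 arrays a group, 1 array can set any of these values, and the 27 dim probes give no usable ratio.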
